A study of Rattus norvegicus with 18 samples.

Results

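The genes described here encode the proteins of the cytosolic ribosome. They were taken from the rat array by symbol: Rpsa, Rplp0, Rplp1, Rplp2, or Rpl or Rps followed by a number with at most a final a, x, y or l. The S6 kinase genes of similar name were left out. Each gene was read from its brightest probe set, a set of probes for the same transcript, and was kept where that set lay above log2 4 in at least 3 arrays. This gave 41 genes of the 9149 tested. The symbol rule matched 50 probe sets of 44 genes, and 3 genes did not pass. Rpl3l and Rpl30 had means of 2.62 each and lay above log2 4 in 0 arrays, and Rps13 had a mean of 3.47 and lay above it in 2 arrays. On the inner side of that threshold stood Rpl28, with a mean of 4.34. A further 33 probe sets carry several symbols with a ribosomal protein among them and fall outside the rule.

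The samples were cultures of NRK-52E, an established rat kidney line that the labels give as Osborne-Mendel and as proximal tubule epithelium. Confluent cells received chlorothalonil, an organochlorine fungicide that reacts with thiols, at 1.1 µM in 0.1% DMSO, or 0.1% DMSO alone, for 6, 24 or 72 h. The labels call that dose the IC10 at 72 h. Total RNA of 18 cultures was read on 18 Affymetrix arrays, 3 in each of the 6 groups, and the question is what the fungicide does to transcript levels at each time. DMSO was present in every group, and no culture without DMSO was used here. The titles number the cultures within each group as biological replicates, and all were of a single line.

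A ribosome is made of ribosomal RNA and many proteins, and dividing cells spend much of their transcription on these parts. The messengers of ribosomal proteins share a 5′ terminal oligopyrimidine tract, a stretch of C and T that begins with a C at the first base and that is called TOP. Through it the kinase complex mTORC1 and the RNA-binding protein LARP1 govern their translation and stability together, so that translation can change while messenger levels hardly move. In the proximal tubule as elsewhere the genes are active in every cell, and they are often used as references of constant expression.

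Part of the annotated start sites carry that sequence feature, which the symbol rule did not use. They are shown because it is what the messengers of the family are known for. RefSeq windows of assembly GRCr8 were available for 37 of the 41 genes, 35 matched by gene identifier and 2, Rps9 and Rpl37a, by symbol. A start was counted when the annotated first base is a C followed by at least 4 further C or T on the gene's own strand. Of the 37 genes 12 had it (32.4%), against 881 of 33469 windows in the table (2.63%) and 2.64% of the 7724 windows of genes tested. The longest runs are printed below from 30 bases before the annotated start to 15 bases from it, 5′ to 3′ on the gene's strand, with the run of C and T at the start in capitals. Rpl37a lies at chr9:81748061-81748105 on the plus strand, Rpl19 at chr10:83519034-83519078 on the plus strand and Rpl28 at chr1:78083518-78083562 on the minus strand. Rpl35a lies at chr11:81235007-81235051 and Rps15 at chr7:10068101-10068145, both on the minus strand, and Rpl22 at chr5:168117931-168117975 on the plus strand.
Rpl37a: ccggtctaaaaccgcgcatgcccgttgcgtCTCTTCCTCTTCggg
Rpl19: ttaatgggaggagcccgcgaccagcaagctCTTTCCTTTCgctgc
Rpl28: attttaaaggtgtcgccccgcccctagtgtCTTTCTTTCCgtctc
Rpl35a: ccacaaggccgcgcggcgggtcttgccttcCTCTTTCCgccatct
Rps15: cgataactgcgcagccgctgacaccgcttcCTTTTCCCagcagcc
Rpl22: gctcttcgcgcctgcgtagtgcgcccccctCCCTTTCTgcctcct

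The tracts ran to 12 bases in Rpl37a, to 10 in Rpl19 and Rpl28, and to 8 in Rpl35a, Rps15 and Rpl22. The other genes with such a start were Rps3a, Rpl14, Rplp0, Rpl35, Rpl34 and Rpl39, with runs of 5 or 6. In 25 of the 37 genes the annotated first base opened no such run. They include Rpl5 (chr14:1995211-1995255), Rpl11 (chr5:153560788-153560832) and Rps6 (chr5:106420526-106420570), all on the minus strand and printed over the same window with no run of C and T to capitalise. They are shown because Rpl5 and Rpl11 carry 5S ribosomal RNA and Rps6 is the target of S6 kinase.
Rpl5: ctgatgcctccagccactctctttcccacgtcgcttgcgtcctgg
Rpl11: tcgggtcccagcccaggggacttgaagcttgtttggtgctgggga
Rps6: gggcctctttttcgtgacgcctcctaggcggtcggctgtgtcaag

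The tract is read at the annotated start, which can differ by some bases from the start used in these cells, so a window without the run says only that these letters are not at that base. Among the genes of other lists with a window, the same start was present in 2 of 37 for ribosome assembly (5.41%), 2 of 59 for mitochondrial ribosomal proteins (3.39%) and 0 of 12 for translation elongation and other TOP messengers.

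The transcripts gave signals close to the top of the scale. Of the 41 genes 38 had a mean over the 18 arrays above log2 13, from 13.95 for Rpl14 to 15.82 for Rps29, while the highest value deposited for any probe set was 16.05. They made up 37 of the 100 genes with the brightest probe sets and 30 of the 50 brightest. A probe set's brightness also depends on its probes, so this order is one of signal and not of transcript number. The 3 genes off this plateau were Rps27l (9.74), Rpl39 (7.13) and Rpl28 (4.34). The median of the family's means was 14.89, against 9.22 for all genes tested.

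A probe near its ceiling can report only part of a change. The residual standard deviation of the family's genes had a median of 0.053 on the log2 scale, against 0.064 for the 393 genes above log2 13 and 0.123 for all genes tested. Other genes above log2 14 are given beside the family, though the sets were not matched in level above that cut. The 81 genes outside the family with means above log2 14 changed at 24 h by between −0.71 and 1.56 and at 72 h by between −0.51 and 1.28. The 37 ribosomal protein genes above that level changed at 24 h by between −0.04 and 0.30 and at 72 h by between −0.21 and 0.29. How far saturation compressed the family's own changes was not tested.

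**Figure D1:**
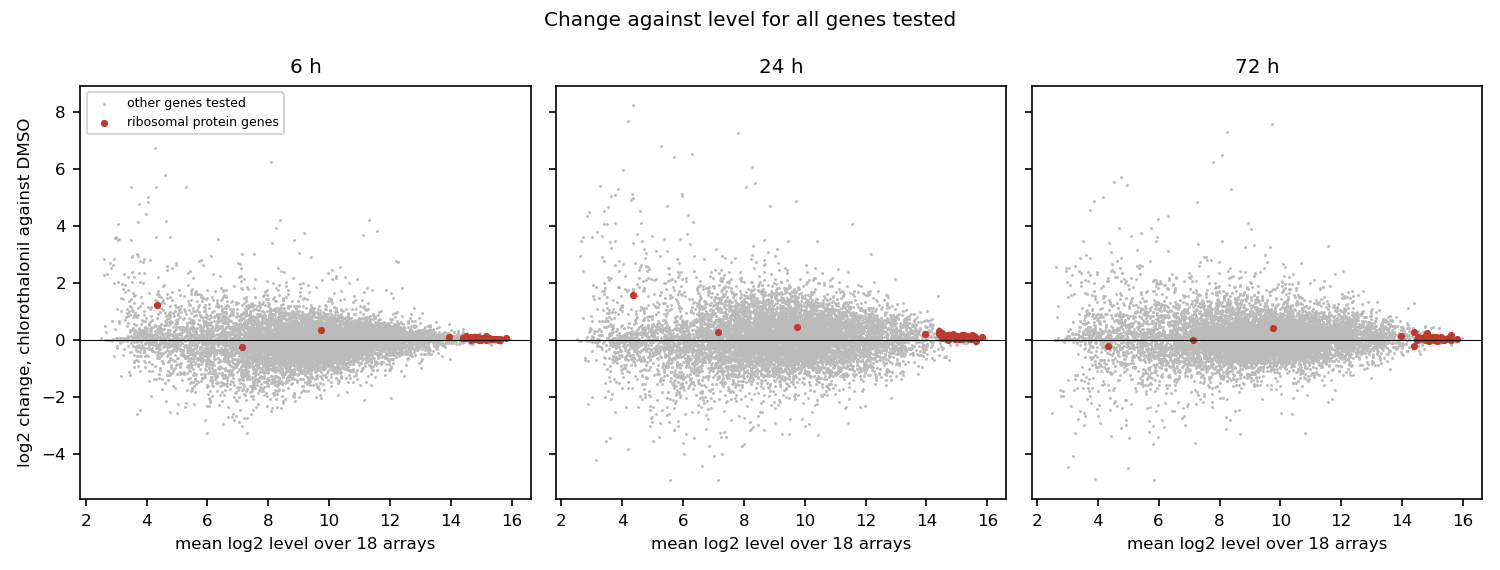
Log2 change of chlorothalonil against DMSO (vertical axis) against the mean log2 level over the 18 arrays (horizontal axis) at 6, 24 and 72 h, for the 41 ribosomal protein genes (red) and the other genes tested (grey). On the deposited scale 38 of the 41 genes sit between log2 13.95 and 15.82 in a band close to 0 at each time, and poly-A scaling moves that band below 0.

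Correlations between the arrays within each group lay at 0.992 to 0.998. Of 11 proximal tubule markers with a probe set, 3 (Ggt1, Mme and Aqp1) passed log2 4 in at least 3 arrays, and Lrp2, Cubn, Slc34a1, Slc5a2, Slc22a6, Hnf4a, Alpl and Anpep passed it in 0 arrays, so the labelled cell type was not borne out by those defining markers. Of the epithelial markers Krt8 and Tjp1 passed (2 of 7), as did 2 of 6 fibroblast markers, 1 of 4 endothelial, 1 of 5 leukocyte, 1 of 3 podocyte and 0 of 5 distal nephron markers. The spiked poly-A control transcripts, which are added to RNA before labelling, were brighter in treated arrays, at 10.77 ± 0.21 against 10.17 ± 0.13 at 6 h, 11.05 ± 0.29 against 9.99 ± 0.72 at 24 h and 10.87 ± 0.21 against 10.21 ± 0.12 at 72 h (mean ± SD, n = 3). DMSO replicate 1 at 24 h stood apart, with its controls at 9.17, while replicates 2 and 3 had 10.31 and 10.51. Scaled to them, the median change of all genes was −0.61 at 6 h, −1.0 at 24 h and −0.58 at 72 h instead of −0.0097, 0.057 and 0.074, so directions below hold on the deposited scale, and part of them turn on the other one. DMSO replicate 2 at 6 h had the lowest array weight (0.341), and its hybridization controls stood at 10.75, while replicates 1 and 3 had 12.05 and 12.01.

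At 6 h the ribosomal protein genes were close to their DMSO levels on the deposited scale. The single call was Rpl28, a protein of the large subunit (limma, adjusted p below 0.05). Of the 12 small subunit genes without Rps27l 0 were called, and of the 38 bright genes 0. At an unadjusted p below 0.05 limma gave 0 of the 12, 1 of the 38 and 4 of the 41. Rps27l was among these 4, with a change of 0.36 (limma unadjusted p = 0.0454, adjusted p = 0.0723). Over all genes 59.6% were called at 6 h, 27.8% higher and 31.8% lower, and among genes above log2 13 the share was 33.3%. The family's changes had a median of 0.057 against −0.0097 for all genes, and 40 of 41 were above 0, with Rpl39 at −0.25. Scaled to the poly-A controls that median was −0.54, and under quantile normalization −0.0010, so its sign belongs to the deposited scale. With each array centred on the median of the genes tested 31 of the 41 genes were called, all higher, with a median of 0.145. On that scale 3305 of the 9149 genes tested were higher and 2478 lower, with a median of 0.079. The count at 6 h thus depends on the scaling. Treated and DMSO arrays did not overlap in 17 genes with the treated ones higher and in 1, Rpl39, with the treated ones lower, against 32.1% and 34.7% of all genes.

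For the other 40 genes a missing call at 6 h is no proof of equal levels. Their 95% intervals ran from −0.47 at the lowest to 0.70 at the highest. The family's median level in the DMSO arrays of 6 h was 14.85, 14.81 and 14.83, lowest in replicate 2, and 14.89, 14.87 and 14.91 in the treated arrays. Without DMSO replicate 2 the median change at 6 h was 0.029.

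At 24 h the family was slightly higher in treated cells. On the deposited scale 22 of 41 genes rose and 0 fell (53.7%). Scaled to the poly-A controls 39 were lower and 0 higher, against 6138 lower and 256 higher of the 9149 genes tested. On the deposited scale 70.1% of all genes were called, with 39.1% of all genes higher and 31.1% lower. The family's share of calls in either direction was thus below that of all genes there, and its share of rises was above it. Of the 38 bright genes 19 rose (50%). Among the 393 genes above log2 13, 68.7% were called in either direction, with 163 higher and 107 lower. The median change was 0.137 against 0.057 for all genes and turned to −0.92 with poly-A scaling, or −0.49 there without DMSO replicate 1. Of the 28 large subunit genes 16 rose, with a median of 0.141, and of the 12 small subunit genes without Rps27l 5 rose, with a median of 0.122 (−0.92 over the family with poly-A scaling). Treated arrays lay above all DMSO arrays in 29 of the 41 genes, against 40.4% of all genes, and below them in 0, against 32.5%. The difference between the family and other genes was not tested. The beta-actin control, which reads RNA quality by the excess of its 3′ over its 5′ probe set, also differed between these groups without overlap. It read 1.03, 1.13 and 1.16 in treated and 1.23, 1.27 and 1.32 in DMSO arrays. The Gapdh control, read likewise, did overlap, at −0.26, −0.20 and −0.20 in treated and −0.23, −0.23 and −0.23 in DMSO arrays. The part of RNA quality in the result was not tested.

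The count at 24 h depended on single arrays and on the scaling. It was 11 without chlorothalonil replicate 1 and 11 without DMSO replicate 3. Under quantile normalization it was 7, all higher, against 3579 higher and 2893 lower of the 9149 genes tested. With each array centred on the median of the genes tested it was 7, 6 higher and 1 lower. All genes then had 3210 higher and 3300 lower. On either of these scales the family's share of rises lay below that of all genes. On the deposited scale the bright genes that rose did so by 0.11 to 0.30. There 40 of 41 changes were above 0, with Rpl13a at −0.04 (limma adjusted p = 0.470).

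**Figure D2:**
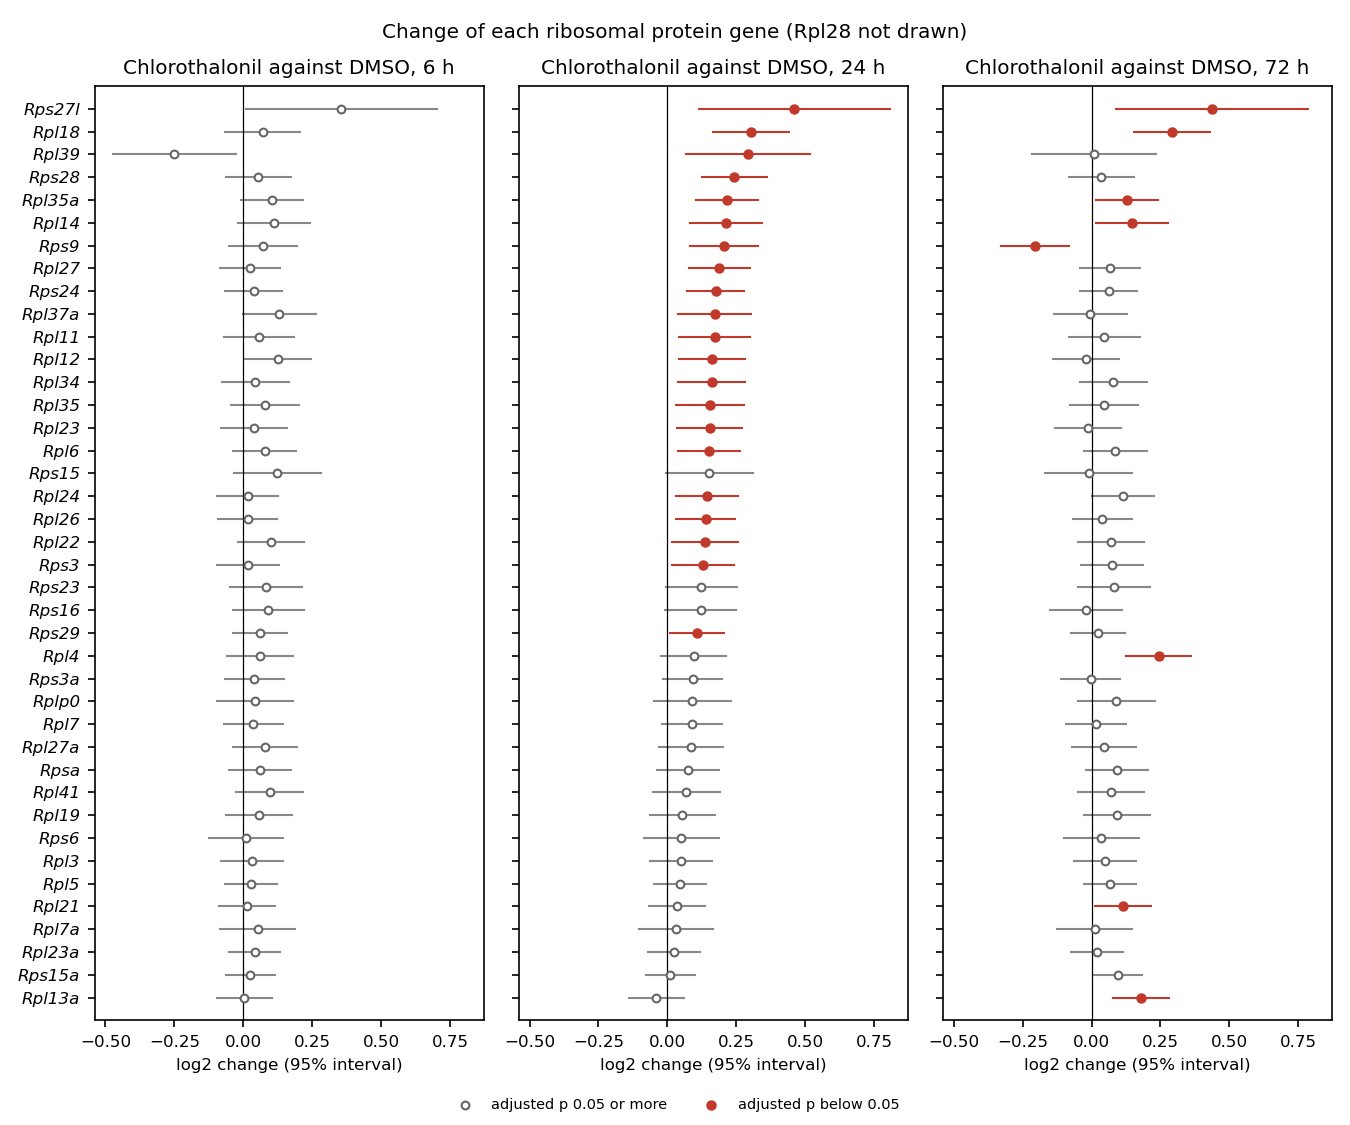
Log2 change of chlorothalonil against DMSO with its 95% interval (horizontal axis) for 40 ribosomal protein genes, one per line and ordered by the change at 24 h, with Rpl28 left out because its changes of 1.24 and 1.58 lie beyond the axis. Filled red points passed an adjusted p of 0.05, which on the deposited scale 0 of these 40 did at 6 h, 21 at 24 h and 8 at 72 h, while poly-A scaling turns the medians to −0.54, −0.92 and −0.59.

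Rpl18, a protein of the large subunit, showed the largest rise among the bright genes at 24 h. Its log2 levels were 14.59, 14.47 and 14.41 in treated arrays and 14.21, 14.18 and 14.18 in DMSO arrays. The groups did not overlap, and the lowest treated array lay clear of the highest DMSO array. Rpl18 rose by 0.30 (SE 0.064, limma adjusted p = 0.000595), which is 23.4%, and had −0.76 with poly-A scaling.

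Rps27l, a variant of the small subunit protein Rps27 that p53 is known to induce, was measured well below the ceiling. Treated arrays read 10.12, 10.22 and 10.22 and DMSO arrays 9.64, 9.70 and 9.85 at 24 h. Every treated array was above every DMSO array. Its rise of 0.46 (SE 0.163, limma adjusted p = 0.0197) came to 37.7% and was −0.60 with poly-A scaling. Without DMSO replicate 1 the adjusted p was 0.0634.

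Among the smallest rises that were called at 24 h, Rpl22, an RNA-binding protein of the large subunit, read 14.74, 14.69 and 14.65 against 14.65, 14.53 and 14.48 in DMSO. Its highest DMSO array reached above its lowest treated array, so here the groups overlapped. The rise was 0.14 (SE 0.056, limma adjusted p = 0.0400). Rps3, which lies at the entry of the messenger channel, read 14.71, 14.66 and 14.67 against 14.58, 14.55 and 14.52 and rose by 0.13 (limma adjusted p = 0.0403).

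Rps29, a small zinc-binding protein of the small subunit, read 15.85, 15.85 and 15.81 against 15.73, 15.77 and 15.68, with no overlap. It rose by 0.11 (SE 0.046, limma adjusted p = 0.0471), or 7.76%. These last 3 calls were fragile: leaving out each of the 6 arrays of that time in turn, Rpl22 was called in 2 of 6 fits and Rps3 and Rps29 in 1 of 6 each, with adjusted p up to 0.156 for Rpl22, 0.106 for Rps3 and 0.152 for Rps29. All 3 were above 0 in each of those fits, and all 3 had about −0.9 with poly-A scaling, at −0.92, −0.93 and −0.95.

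Between these lay the other called genes of the large subunit: Rpl26 and Rpl24 with 0.14, Rpl6 and Rpl23 with 0.15, Rpl35, Rpl34 and Rpl12 with 0.16, Rpl11 and Rpl37a with 0.17, Rpl27 with 0.19, Rpl14 with 0.21 and Rpl35a with 0.22. Of the small subunit, Rps24 rose by 0.18, Rps9 by 0.21 and Rps28 by 0.24. Rpl39, a short protein of the exit tunnel that was read off the ceiling, rose by 0.29 (limma adjusted p = 0.0215). Its arrays were 7.13, 7.52 and 7.18 with chlorothalonil and 6.96, 7.01 and 6.97 with DMSO, without overlap.

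The genes with a TOP start were called at 24 h in 8 of 12 cases, and those without it in 12 of 25, against 70.1% of all genes called and 39.1% called higher. The median changes were 0.159 and 0.124 at 24 h, 0.0902 and 0.0547 at 6 h and 0.0581 and 0.0662 at 72 h, with and without the tract. These are descriptions of overlapping ranges, and no test of the tract was made.

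**Figure D3:**
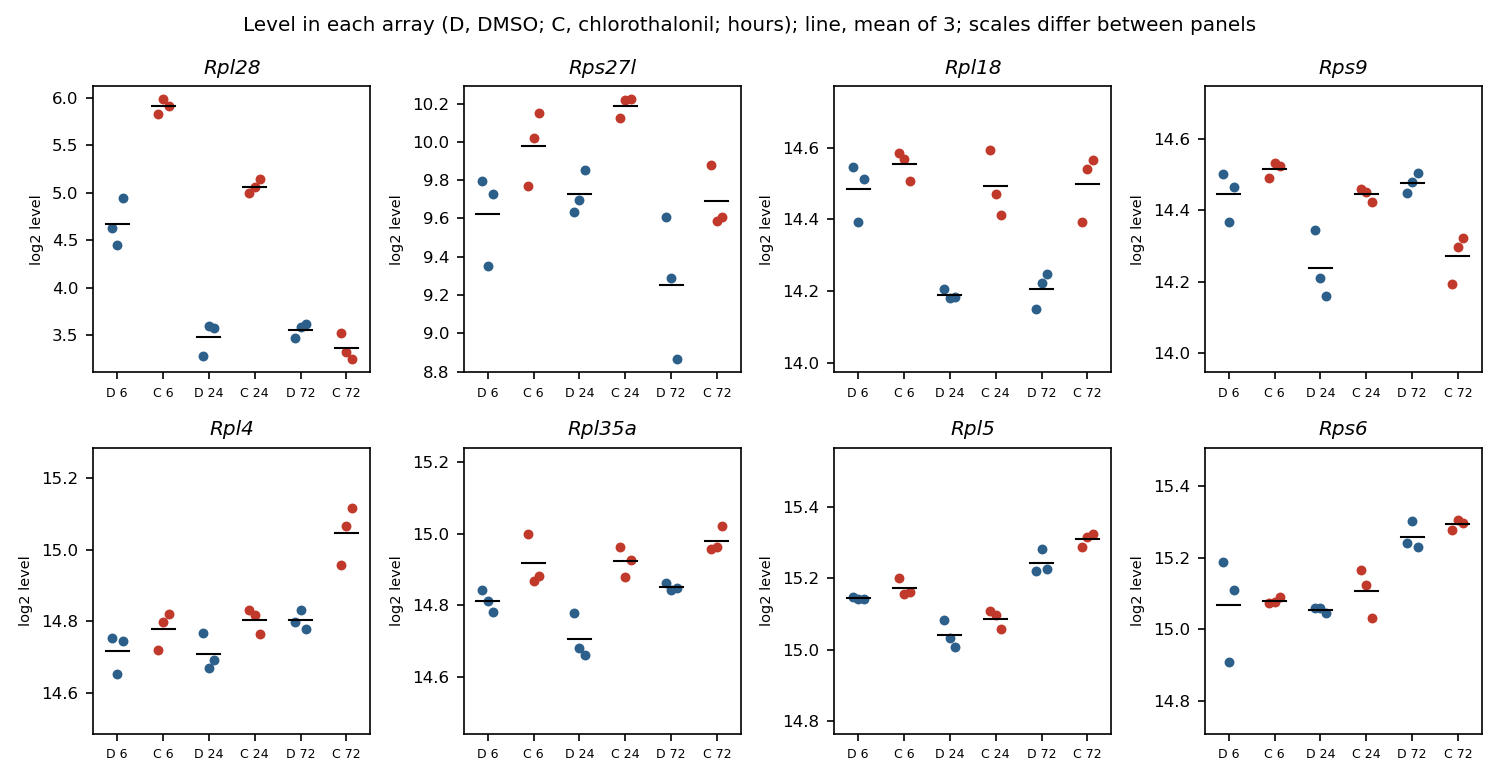
Log2 level of 8 ribosomal protein genes in each of the 18 arrays, DMSO in blue and chlorothalonil in red at 6, 24 and 72 h, with a line at the mean of the 3 arrays and a vertical scale that differs between panels. Rpl28 lies at 5.00 to 5.14 in treated arrays against 3.28 to 3.60 in DMSO at 24 h, while Rpl5 and Rps6 differ little between treatments and are higher at 72 h.

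At 72 h fewer genes were called than at 24 h, and they included a fall. On the deposited scale 7 of 41 genes rose and 1 fell (19.5%), against 64.3% of all genes called, 37.2% higher and 27% lower. Scaled to the poly-A controls 0 rose and 2 fell, against 313 higher and 3248 lower of the 9149 genes tested. The median was 0.063 against 0.074 for all genes, −0.031 when arrays were centred on the median of the genes tested and −0.59 with poly-A scaling. Of the 38 bright genes 6 rose and 1 fell, against 59% called among genes above log2 13. Changes were above 0 in 33 of 41 genes, and treated arrays lay above all DMSO arrays in 14 genes and below them in 1, against 40.1% and 30.5% of all genes. The count fell to between 4 and 6 when any of the 6 arrays of that time was left out. It was 5 without any single chlorothalonil array and without DMSO replicate 1, and 4 without DMSO replicate 2.

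Rps9, a small subunit protein near the decoding site, was the one that fell. Treated arrays read 14.19, 14.30 and 14.32 and DMSO arrays 14.45, 14.48 and 14.50 at 72 h, without overlap. The fall was by 0.21 (SE 0.058, limma adjusted p = 0.00607), and it was called in 6 of 6 fits that left out an array. At 24 h the same gene had risen by 0.21 (limma adjusted p = 0.00530), with treated arrays at 14.46, 14.45 and 14.42 and DMSO arrays at 14.34, 14.21 and 14.16, so the order of the groups was the opposite. The treatment effect at 72 h minus that at 24 h was −0.41 (SE 0.082, limma adjusted p = 0.000572). With poly-A scaling Rps9 was lower at both times, with −0.85 at 24 h and −0.86 at 72 h, and that difference was −0.0052 and not called (adjusted p = 0.996).

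Rpl4, which lines the exit tunnel, had the largest rise among the bright genes confined in its call to 72 h. Treated arrays read 14.96, 15.07 and 15.12 and DMSO arrays 14.80, 14.83 and 14.78. The groups were well apart, and Rpl4 rose by 0.24 (SE 0.056, limma adjusted p = 0.00134), or 18.4%, and had −0.41 with poly-A scaling. Its change was 0.10 at 24 h (adjusted p = 0.139), and the effects at the 2 times did not differ past the threshold (0.15, adjusted p = 0.120).

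Rpl18 rose again at 72 h, by 0.29 (limma adjusted p = 0.000977), from 14.15, 14.22 and 14.25 in DMSO to 14.39, 14.54 and 14.56, without overlap. Rps27l rose by 0.44 (limma adjusted p = 0.0285), with treated arrays at 9.88, 9.59 and 9.61 and DMSO arrays at 9.61, 9.29 and 8.86. Here the highest DMSO array passed the lowest treated array, and the DMSO arrays were widely spread. Leaving out treated replicate 1, DMSO replicate 2 or DMSO replicate 3 lost the call (adjusted p = 0.113, 0.0511 and 0.172). With poly-A scaling Rpl18 was at −0.36 and Rps27l at −0.22.

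Rpl13a, a large subunit protein also known from a complex that silences translation after interferon, had 15.82, 15.75 and 15.81 in treated and 15.62, 15.61 and 15.62 in DMSO arrays and rose by 0.18 (limma adjusted p = 0.00387). The large subunit genes Rpl35a and Rpl21 stood at the margin. Rpl35a read 14.96, 14.96 and 15.02 against 14.86, 14.84 and 14.85 and rose by 0.13 (limma adjusted p = 0.0413). Neither Rpl13a nor Rpl35a overlapped with its DMSO arrays.

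Rpl21 read 15.14, 15.15 and 15.10 against 14.99, 14.97 and 15.09, again without overlap, and rose by 0.12 (limma adjusted p = 0.0452). Leaving out any 1 array of that time lost the call of Rpl35a in 6 of 6 fits (adjusted p = 0.0520 to 0.130), and that of Rpl21 in 5 of 6. With poly-A scaling they had −0.52 and −0.54. Rpl14 completed the list with 0.15 (limma adjusted p = 0.0476).

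Rpl5 and Rpl11, which form a particle with 5S ribosomal RNA and can bind and restrain Mdm2 when assembly of ribosomes fails, moved little. Rpl5 read 15.20, 15.16 and 15.16 against 15.15, 15.14 and 15.14 at 6 h, 15.11, 15.10 and 15.06 against 15.08, 15.03 and 15.01 at 24 h, and 15.29, 15.31 and 15.32 against 15.22, 15.28 and 15.23 at 72 h (chlorothalonil against DMSO). Its changes of 0.029, 0.047 and 0.066 did not pass the threshold (limma adjusted p = 0.591, 0.360 and 0.204), and their 95% intervals on the deposited scale ran from −0.06 to 0.12, −0.05 to 0.14 and −0.03 to 0.16. Rpl5 was called higher with centring at 6 h (0.12, adjusted p = 0.0340) and with quantile normalization at 72 h (0.11, adjusted p = 0.0484). Rpl11 rose at 24 h by 0.17 (SE 0.060, limma adjusted p = 0.0186), from 14.65, 14.57 and 14.59 to 14.82, 14.77 and 14.73.

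For Rpl11 the arrays did not overlap at 24 h. They did at 6 h, where treated arrays read 14.80, 14.79 and 14.74 and DMSO arrays 14.78, 14.61 and 14.78, and at 72 h, where they read 14.65, 14.81 and 14.78 against 14.66, 14.71 and 14.73 (adjusted p = 0.431 and 0.519). Leaving out treated replicate 1 or DMSO replicate 2 lost its call at 24 h (limma adjusted p = 0.0644 and 0.0580). With centring Rpl11 was called higher at 6 h (0.15, limma adjusted p = 0.0300) and not called at 24 h (0.088, adjusted p = 0.160). With poly-A scaling Rpl5 had −1.01 and Rpl11 −0.89 at 24 h.

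Rps6, the protein of the small subunit that S6 kinase phosphorylates, read 15.07, 15.07 and 15.09 in treated and 15.19, 14.91 and 15.11 in DMSO arrays at 6 h. At 24 h it read 15.16, 15.12 and 15.03 against 15.06, 15.06 and 15.05, and at 72 h 15.28, 15.31 and 15.30 against 15.24, 15.30 and 15.23. The groups overlapped at each time, with changes of 0.010, 0.050 and 0.036 (limma adjusted p = 0.9005, 0.492 and 0.648). The interval at 24 h ran from −0.08 to 0.19.

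Rplp0, the base of the stalk that recruits translation factors, read 15.26, 15.29 and 15.31 against 15.33, 15.10 and 15.30 at 6 h, 15.40, 15.31 and 15.29 against 15.29, 15.27 and 15.17 at 24 h, and 15.24, 15.37 and 15.35 against 15.21, 15.26 and 15.21 at 72 h. Its changes of 0.043, 0.090 and 0.091 did not pass (limma adjusted p = 0.595, 0.229 and 0.238). Rplp0 was called higher at 72 h with quantile normalization (0.12, limma adjusted p = 0.0323). Rpl22 outside its call at 24 h read 14.77, 14.68 and 14.68 against 14.66, 14.57 and 14.61 at 6 h and 14.72, 14.79 and 14.80 against 14.69, 14.71 and 14.69 at 72 h. In both, treated arrays lay above DMSO arrays, with changes of 0.10 and 0.071 that did not pass (limma adjusted p = 0.135 and 0.281). With centring Rpl22 was called higher at 6 h (0.19, limma adjusted p = 0.00467) and not called at 24 h (0.053, adjusted p = 0.359).

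Rpl28 differed from the rest in level and in the size of its change. It was read from a dim probe set, at 5.83, 5.99 and 5.92 in treated and 4.63, 4.45 and 4.94 in DMSO arrays at 6 h. The groups were far apart, and the rise was by 1.24 (SE 0.117, limma adjusted p = 4.05e-07), or 2.35-fold. It was 0.64 and not called with poly-A scaling (adjusted p = 0.108).

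At 24 h treated arrays of Rpl28 read 5.00, 5.06 and 5.14, while DMSO arrays at 3.28, 3.60 and 3.58 all lay below log2 4, where a value is background. The mean of the treated arrays against log2 4 gives a rise of at least 2.09-fold (limma adjusted p = 1.30e-08 for the measured means of 5.06 and 3.49). With poly-A scaling the change was 0.52 and not called (adjusted p = 0.147). At 72 h 0 of the 6 arrays passed log2 4, with 3.53, 3.33 and 3.25 against 3.48, 3.59 and 3.62, and no fold is given.

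A brighter probe set carries the symbol Rpl28 together with 2 other symbols and so stands outside the rule, with a mean of 14.28. It read 14.30, 14.28 and 14.29 against 14.17, 14.01 and 14.17 at 6 h and 14.43, 14.36 and 14.29 against 14.08, 14.03 and 13.96 at 24 h. Treated arrays lay above DMSO arrays at both times. Over the 16686 probe sets kept, limma gave a change of 0.18 at 6 h (adjusted p = 0.0574), a rise of 0.34 at 24 h (adjusted p = 0.00103), or 1.26-fold, and a change of 0.11 at 72 h (adjusted p = 0.232). The dim and the bright probe set thus had the same sign at 6 and 24 h, and their sizes differed.

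Rps24, Rpl7, Rpsa and Rpl3 also had further probe sets that passed the filter. For Rps24 the dim set read 8.30, 8.43 and 8.43 with chlorothalonil and 7.40, 7.67 and 7.42 with DMSO at 24 h, a rise of 0.89 (limma adjusted p = 0.000135), against 0.18 on the bright set. At 6 h it read 7.91, 7.99 and 8.14 against 8.32, 8.70 and 8.60 and fell by 0.53 (adjusted p = 0.00952), while the bright set had 0.037 and was not called. For neither of these times did the arrays of the dim set overlap.

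The dim set of Rpl7 read 5.91, 6.53 and 6.78 against 5.42, 5.82 and 4.65 at 24 h, a rise of 1.11 (limma adjusted p = 0.00447), against 0.090 and no call on the bright set. Rpsa, the laminin receptor protein of the small subunit, had 2 further sets. The one marked as of a type that can bind related transcripts rose by 0.27 at 24 h and 0.28 at 72 h (adjusted p = 0.0155 and 0.0158). The other, without a type mark, had 0.084 at 24 h (adjusted p = 0.352). The brightest set of Rpsa, which carries another type mark, had 0.076 and 0.093 at 24 and 72 h and was not called. The second set of Rpl3, marked like the Rpsa set that rose, had −0.14 at 24 h (adjusted p = 0.393), against 0.049 on its bright set. No gene had probe sets called in opposite directions in the same comparison.

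The 33 probe sets with several symbols, span means of 7.05 to 15.56. Of them 2 rose and 0 fell at 6 h, 10 rose and 0 fell at 24 h, and 4 rose and 0 fell at 72 h, with medians of 0.083, 0.116 and 0.054. Of all 16686 probe sets 54.1%, 64.1% and 58.9% were called at these times, and 23.9%, 32.1% and 29.4% were called higher. These sets were not scaled to the poly-A controls.

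The family also moved with time in DMSO alone. From 6 to 24 h, 13 of 41 genes fell and 1 rose, against 72.9% of all genes called (32.9% higher and 40% lower), with a median of −0.073 that turned to 0.034 when arrays were centred on the median of the genes tested and to 0.11 with poly-A scaling. From 24 to 72 h, 23 rose and 1 fell, against 60.7% of all genes called (36.3% higher and 24.3% lower), and the median of 0.139 turned to −0.081 with poly-A scaling. These comparisons share the DMSO arrays of 24 h with each other and with the treatment comparison at 24 h, so the values of those arrays enter all 3. The count from 6 to 24 h was 7 without DMSO replicate 1 or replicate 3 at 6 h and 8 without DMSO replicate 2 or replicate 3 at 24 h. The count from 24 to 72 h was 14 without DMSO replicate 3 at 24 h.

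In single genes, Rpl18 had DMSO levels of 14.54, 14.39 and 14.51 at 6 h, 14.21, 14.18 and 14.18 at 24 h and 14.15, 14.22 and 14.25 at 72 h. It fell by 0.29 from 6 to 24 h (limma adjusted p = 0.000693), while treated arrays at 6 h (14.59, 14.57 and 14.51) and 24 h (14.59, 14.47 and 14.41) covered a common range. Rps9 and Rps28 fell by 0.21 and 0.20 over the same interval in DMSO (adjusted p = 0.00497 and 0.00496). Rpl28 left the measurable range between the times in DMSO.

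The largest rise from 24 to 72 h in DMSO was that of Rps16, a small subunit protein, from 14.76, 14.73 and 14.72 to 15.00, 15.14 and 15.07, by 0.33 (limma adjusted p = 0.000241). Rpl23a, by which the ribosome binds the signal recognition particle, rose from 15.32, 15.28 and 15.26 to 15.52, 15.55 and 15.55, by 0.25 (adjusted p = 0.000154). Neither was called for treatment at any time, with 0.12 and 0.024 at 24 h. Rpl5 and Rps6 rose by 0.20 each (adjusted p = 0.00108 and 0.0123), as the plot of levels by array shows. Rps27l went the other way and fell by 0.47 (adjusted p = 0.0203). At 72 h the beta-actin control read 1.51 to 2.02 higher at its 3′ than at its 5′ probe set, against 0.90 to 1.12 at 6 h and 1.03 to 1.32 at 24 h, and the part of this in the changes with time was not tested.

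**Figure D4:**
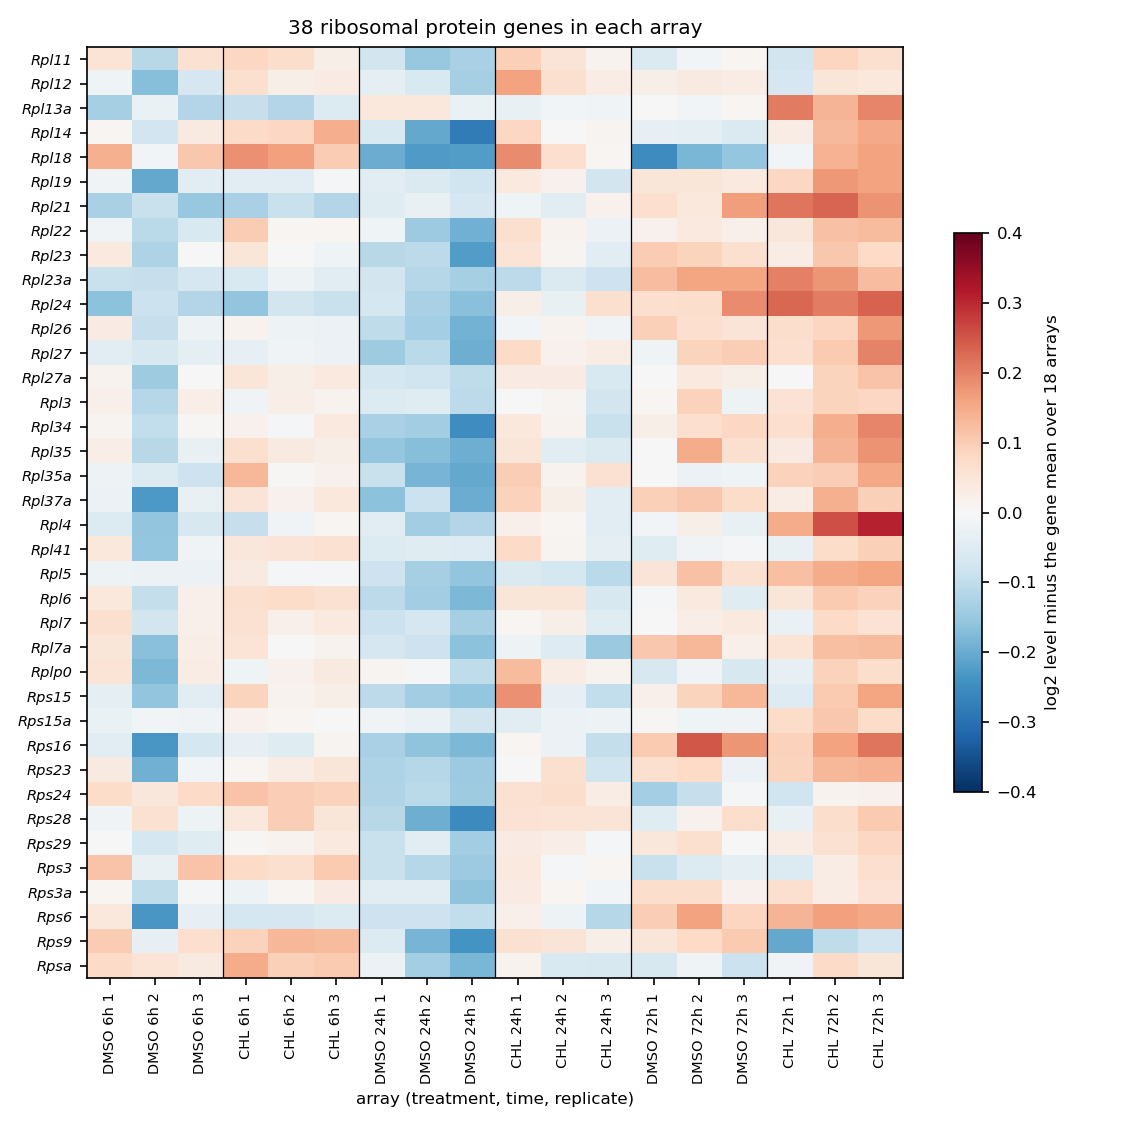
Log2 level of 38 bright ribosomal protein genes (rows) in the 18 arrays (columns, in order of time and treatment), each minus the gene's mean over all arrays, on a colour scale from −0.4 to 0.4, with red for higher. On the deposited scale the 3 DMSO arrays at 24 h are mostly blue and the arrays at 72 h mostly red, no value lies further from its mean than 0.307, and with poly-A scaling the median change at 24 h turns to −0.92.

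The treatment effect differed between times in few genes of the family. Between 6 and 24 h the difference passed in 3 of 41 genes, all higher at 24 h: Rpl39 by 0.54, Rpl18 by 0.23 and Rps28 by 0.19 (limma adjusted p = 0.00508, 0.0353 and 0.0485), against 63% of all genes (39.6% higher and 23.4% lower). The median difference was 0.048, against 0.158 for all genes, and turned to −0.12 with centring on the median of the genes tested and to −0.42 with poly-A scaling. Without DMSO replicate 2 at 6 h the median was 0.109. The count was 1 without treated replicate 2 or 3 or DMSO replicate 1 or 3 at 6 h, and 1 without treated replicate 1 or DMSO replicate 2 or 3 at 24 h. Between 24 and 72 h the difference passed in 4 genes, against 57.6% of all genes (27.9% higher and 29.8% lower). Rpl13a was higher at 72 h (0.22), and Rps28, Rps9 and Rpl28 were lower (−0.21, −0.41 and −1.77). The size for Rpl28 rests on background, since its DMSO arrays at both times and its treated arrays at 72 h all lay below log2 4. The median of −0.066 turned to 0.34 with poly-A scaling.

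Other genes that serve translation are given beside the same shares over all genes. On the deposited scale 59.6% of these were called at 6 h, 70.1% at 24 h and 64.3% at 72 h. With poly-A scaling 232 of 9149 were higher and 3359 lower at 6 h. The counts were 256 and 6138 at 24 h and 313 and 3248 at 72 h. Of 40 tested genes of ribosome assembly and ribosomal RNA processing, 26 rose and 2 fell at 6 h with a median of 0.41. At 24 h 40 rose with a median of 1.36, and at 72 h 21 rose and 5 fell with a median of 0.31. The shares called were 70%, 100% and 65% on the deposited scale. With poly-A scaling the medians were −0.19, 0.30 and −0.35. There 1 rose and 2 fell at 6 h, 7 and 2 at 24 h, and 0 and 8 at 72 h. Gar1, of the particle that pseudouridylates ribosomal RNA, read 11.28, 11.12 and 11.15 against 9.13, 9.34 and 9.10 at 24 h, a rise of 1.99 (SE 0.076, limma adjusted p = 1.40e-11). Nop16, a nucleolar assembly factor, read 11.93, 11.87 and 11.81 against 10.35, 10.29 and 10.36. Treated and DMSO arrays of both genes were far apart, and the rise of Nop16 by 1.53 (adjusted p = 1.97e-11) was 0.47 and not called with poly-A scaling (adjusted p = 0.186). In DMSO alone all 40 genes fell from 6 to 24 h, with a median of −1.37.

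The proteins of the mitochondrial ribosome, a separate machine encoded in the nucleus, counted 73 tested genes. Of them 37 rose and 5 fell at 6 h, 64 rose and 1 fell at 24 h, and 49 rose and 4 fell at 72 h. The medians of 0.19, 0.58 and 0.36 turned to −0.41, −0.48 and −0.29 with poly-A scaling. The shares called were 57.5%, 89% and 72.6% on the deposited scale. On the poly-A scale 0 rose and 5 fell at 6 h, 2 and 17 at 24 h, and 1 and 7 at 72 h. Mrps7 read 11.16, 11.12 and 10.97 against 9.87, 9.92 and 9.84 at 24 h and rose by 1.21 (limma adjusted p = 3.10e-10). Mrpl47 read 10.55, 10.31 and 10.32 against 8.85, 8.89 and 8.86 and rose by 1.52 (adjusted p = 3.73e-10). Both stood without overlap, and with poly-A scaling neither was called (0.15 and 0.46, adjusted p = 0.689 and 0.196).

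Among 15 tested genes of translation elongation and other TOP messengers, 6 rose at 6 h, 7 at 24 h and 11 at 72 h and 0 fell, with medians of 0.148, 0.122 and 0.238 that turned to −0.45, −0.94 and −0.42 with poly-A scaling. The shares called were 40%, 46.7% and 73.3%. On the poly-A scale 0 rose and 0 fell at 6 h, 0 and 10 at 24 h, and 1 and 0 at 72 h. With centring on the median 13 rose at 6 h, 6 rose and 1 fell at 24 h, and 9 rose at 72 h. Over all 9149 genes 3305, 3210 and 2885 were higher with centring. The time with most calls thus depends on the scaling. Eif4b, an initiation factor that helps the helicase eIF4A, read 12.58, 12.60 and 12.44 against 11.13, 11.14 and 10.85 at 72 h and rose by 1.5 (SE 0.099, limma adjusted p = 7.04e-09), or 2.83-fold. Nap1l1, a histone chaperone, read 13.85, 13.84 and 13.71 against 13.02, 12.98 and 12.99 and rose by 0.80 (adjusted p = 1.91e-08), but the mean of its probe sets that passed gave −0.15 and its set without a type mark −0.066. With poly-A scaling it was 0.15 and not called (adjusted p = 0.731).

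The regulators of mTORC1, of TOP messengers and of S6 kinase moved in both directions: 8 rose and 11 fell of 22 at 6 h, 8 and 9 at 24 h, and 9 and 5 at 72 h, with medians of −0.22, −0.14 and −0.054 that were −0.82, −1.20 and −0.71 with poly-A scaling. The shares called were 86.4%, 77.3% and 63.6%. On the poly-A scale 2 rose and 11 fell at 6 h, 0 and 16 at 24 h, and 0 and 10 at 72 h. At 6 h Sesn2, a leucine sensor that restrains mTORC1, read 12.23, 12.47 and 12.46 against 9.87, 9.58 and 10.03 and rose by 2.56 (limma adjusted p = 2.79e-10), or 5.90-fold. Ddit4, which restrains mTORC1 through the TSC complex, read 10.54, 10.59 and 10.41 against 8.20, 8.60 and 8.33 and rose 4.4-fold (adjusted p = 1.75e-09). Both were without overlap. At that time 1 of 41 ribosomal protein genes was called on the deposited scale, against 59.6% of all genes. With centring on the median 31 were called, all higher, against 3305 higher and 2478 lower of all 9149 genes. A link between the ribosomal protein genes and these regulators was not tested.

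Of 16 partners of the p53 and ribosome stalling responses, 5 rose and 4 fell at 6 h, 9 rose and 4 fell at 24 h, and 9 rose and 3 fell at 72 h, with medians of −0.035, 0.28 and 0.39 and of −0.63, −0.78 and −0.26 with poly-A scaling. The shares called were 56.2%, 81.2% and 75%. On the poly-A scale 1 rose and 4 fell at 6 h, 1 and 9 at 24 h, and 2 and 4 at 72 h. Eif2ak4, the kinase GCN2 that senses uncharged tRNA and stalled ribosomes, read 9.41, 9.55 and 9.60 against 11.06, 10.97 and 11.13 at 24 h and fell by 1.54 (limma adjusted p = 2.33e-11). Ppp1r15a, the phosphatase partner GADD34, read 11.24, 10.89 and 10.71 against 6.58, 6.42 and 5.79 and rose by 4.68 (adjusted p = 1.41e-10). Neither overlapped with its DMSO arrays.

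Of the 3 tested relatives of ribosomal proteins that the symbol rule leaves out, Rpl7l1 fell by 0.46 at 6 h (limma adjusted p = 0.000105), from 11.23, 11.17 and 11.31 to 10.78, 10.77 and 10.78. Rsl1d1, a nucleolar protein with a ribosomal L1 domain, read 12.08, 12.11 and 11.98 against 11.66, 11.75 and 11.69 and rose by 0.35 (adjusted p = 0.00374), or −0.25 with poly-A scaling. Both pairs of groups were without overlap. The third, Rsl24d1, was not called, with changes of 0.19, 0.049 and 0.23 at 6, 24 and 72 h (limma adjusted p = 0.677, 0.910 and 0.600).

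**Figure D5:**
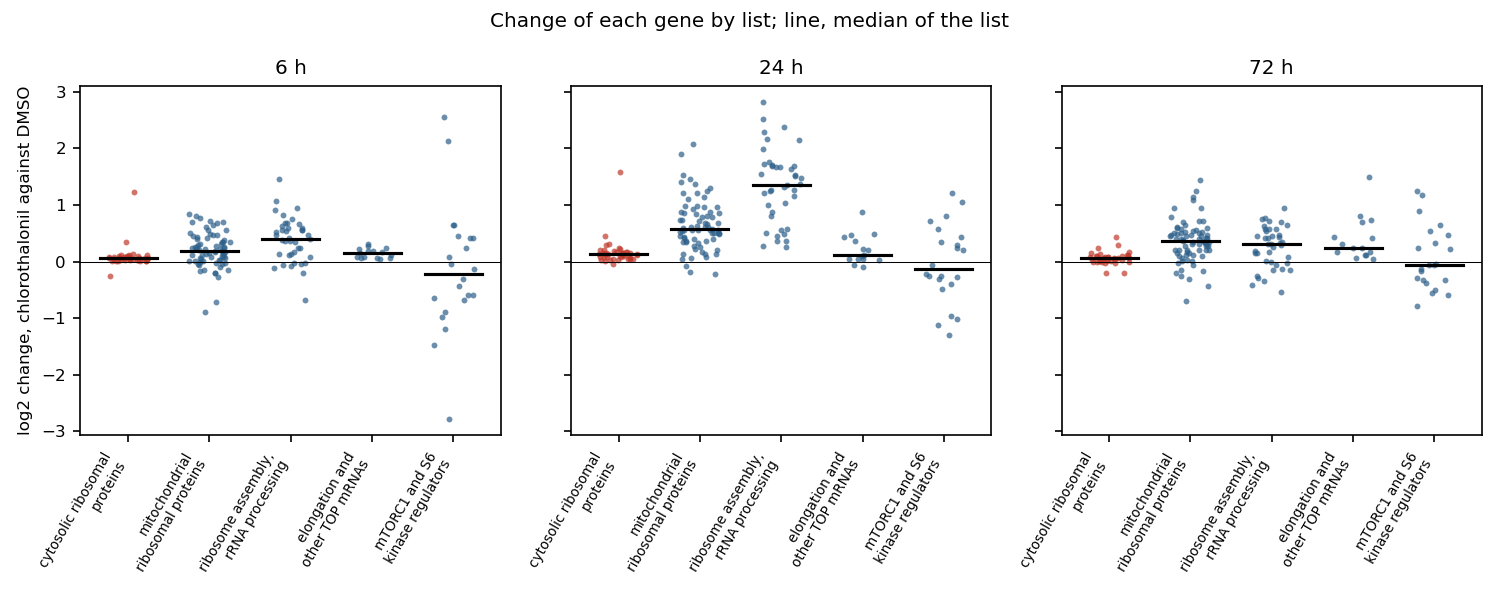
Log2 change of each gene at 6, 24 and 72 h for the cytosolic ribosomal proteins (red) and 4 other lists (blue), with a line at the median of the list. On the deposited scale the medians at 24 h are 0.137 for the ribosomal proteins, 0.58 for mitochondrial ribosomal proteins and 1.36 for ribosome assembly. They are 0.122 for elongation and other TOP messengers and −0.14 for mTORC1 and S6 kinase regulators. With poly-A scaling the medians in this order are −0.92, −0.48, 0.30, −0.94 and −1.20.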

How the data were processed

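RNA of 18 NRK-52E cultures was measured on Affymetrix rat arrays, 3 in each of 6 groups given by the sample titles. The authors deposited log2 values per probe set, and the submitters' processing notes name GCRMA, whose version is not given in the sources used here. GCRMA adjusts arrays to a common distribution, which can remove a change common to all genes. In the deposited values the median of the genes tested still ran from 9.11 to 9.37 between arrays. Array depth has no count, so the number of arrays limits precision, and no scan batch is given in the sources used here.

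Of 31099 probe sets, 20832 had 1 symbol in the platform annotation, 436 several and 9831 none, and 20764 symbols were brought up to date by gene identifier. Probe sets above log2 4 in at least 3 arrays were kept (16686), and each gene was its brightest kept probe set with 1 symbol, which gave 9149 genes. limma 3.58.1 in R 4.3.3 (lmFit and eBayes) was fitted to all 18 arrays with a mean per group, and two-sided p-values were adjusted by Benjamini-Hochberg over all genes tested, with a threshold of 0.05. The script was tested on simulated data.

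The genes and lists were chosen with earlier results of these data known. All called ribosomal protein genes were named. Values in every array were given for called genes (all, or where more than 6 the 3 highest and 3 lowest changes), for Rpl5, Rpl11, Rps6, Rplp0, Rpl22 and the gene with the widest range of group means, and some were added after values were seen: Rpl39, Rpl14's change at 72 h, Rps16, Rpl23a, the DMSO course of Rpl18, and the second probe sets of Rps24 and Rpl7. Of each other list, the 2 called genes with the smallest p were named at the time with most calls. Alternatives were another filter or none, quantile normalization, centring, poly-A scaling, another probe set rule, a variance trend, array weights, a replicate block, fewer arrays in the fit and leaving out each array. A sequence window runs 30 bases before to 15 bases from the RefSeq start.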

Additional observations from a re-analysis of the deposited data

Results flagged for a closer look

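Treatment effects that differed between times by a test of the difference (limma) are given here. These differences share arrays: those at 24 h enter both. Between 6 and 24 h the effect was higher at 24 h in Rpl18 (0.23), Rpl39 (0.54), Rps28 (0.19), Rpl7l1 (0.66), Rsl1d1 (0.84), Gar1 (1.37), Nop16 (0.95), Mrps7 (0.51), Mrpl47 (0.84) and Ppp1r15a (1.18), and lower in Sesn2 (−1.35), Ddit4 (−1.85) and Eif2ak4 (−0.57). Between 24 and 72 h it was higher at 72 h in Rpl13a (0.22), Eif4b (1.56), Nap1l1 (0.75) and Eif2ak4 (1.51), and lower in Rps9 (−0.41), Rps28 (−0.21), Rpl28 (−1.77), Rpl7l1 (−0.47), Rsl1d1 (−0.82), Gar1 (−1.44), Nop16 (−1.10), Mrps7 (−1.0), Mrpl47 (−0.28) and Ppp1r15a (−1.41). Adjusted p ran up to 0.0485, for Rps28 between 6 and 24 h.

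The array also holds a control probe set for 5S ribosomal RNA, the RNA that Rpl5 and Rpl11 carry, which no comparison of the report uses. It read 11.02, 10.77 and 11.01 with chlorothalonil against 7.22, 6.43 and 7.56 with DMSO at 6 h, a difference of 3.86 (limma adjusted p = 8.78e-07). At 24 h it read 13.13, 12.91 and 13.03 against 7.74, 7.85 and 6.5, a difference of 5.66 (adjusted p = 8.75e-09). At 72 h it read 9.68, 10.13 and 10.04 against 6.88, 5.77 and 5.51, a difference of 3.90 (adjusted p = 6.09e-07). The groups were far apart at each time, and with poly-A scaling the differences were 3.27, 4.60 and 3.25. The RNA has no poly-A tail, and how it came to be labelled was not tested.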

How the results depend on the processing

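Scaling decided most directions of the ribosomal protein genes. With poly-A scaling the median change was −0.54 at 6 h, −0.92 at 24 h (−0.49 without DMSO replicate 1 of that time) and −0.59 at 72 h, 39 genes were called at 24 h and 2 at 72 h, and the medians were 0.11 and −0.081 for DMSO from 6 to 24 h and from 24 to 72 h, with 1 and 0 genes called (limma, 1 at an unadjusted p below 0.05). The treatment effect between times then had medians of −0.42 and 0.34, with 0 genes (limma, 0 at an unadjusted p below 0.05) and 1 gene called. Of the 9149 genes tested, poly-A scaling gave 256 higher and 6138 lower at 24 h and 313 and 3248 at 72 h. In DMSO it gave 1852 and 1116 from 6 to 24 h, and 439 and 900 from 24 to 72 h. With centring on the median the treatment medians were 0.145, 0.0535 and −0.031 with 31, 7 and 4 genes called. All genes then had 3305 higher and 2478 lower at 6 h, 3210 and 3300 at 24 h, and 2885 and 3032 at 72 h. The DMSO medians with centring were 0.034 and 0.069 with 6 and 13 called. Over all genes 3513 were higher and 3209 lower from 6 to 24 h, and 2895 and 2668 from 24 to 72 h. The difference between 6 and 24 h was −0.12 with 6. With quantile normalization the medians were −0.0010 at 6 h and 0.061 at 24 h, with 7 genes called at 24 h. Over all genes 3579 were higher and 2893 lower at 24 h. The DMSO medians were −0.030 and 0.092 with this normalization, with 15 called from 24 to 72 h. Over all genes 3023 were higher and 2554 lower from 24 to 72 h.

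Other settings moved counts. At 6 h 2 genes were called with no filter, 2 with the mean of kept probe sets and 2 with probe sets without a type mark (1 higher and 1 lower each), 1 with the filter at log2 6 (lower, with Rpl28 not passing), 5 with a variance trend and 0 without the genes below log2 13 (limma, 1 at an unadjusted p below 0.05). With only the arrays compared, 8 were called at 24 h, 4 at 72 h and 8 for DMSO from 6 to 24 h, and array weights gave 16 at 72 h. The difference between 6 and 24 h had 6 with no filter and 5 with a trend.

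The labels give 3 studies per time, and correlations of same-numbered arrays ran from −0.0438 to 0.305, with 3 of 9 above 0.1, so the numbers were not taken as pairs. With the number as a replicate block 2 genes were called at 6 h and 5 at 72 h, and adjusted p was 0.0553 for Rps3 and 0.0938 for Rps29 at 24 h and 0.0550 for Rpl35a and 0.102 for Rpl21 at 72 h. No block was run for DMSO between times, since it lies within a time.

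Leaving out each array gave 1 to 2 genes at 6 h, 11 to 21 at 24 h, 4 to 6 at 72 h, 7 to 18 and 14 to 22 in DMSO, and 1 to 3 and 3 to 4 for the effect between times. The medians ran from 0.029 to 0.079, 0.115 to 0.160, 0.040 to 0.094, −0.104 to −0.035, 0.117 to 0.154, 0.023 to 0.109 and −0.086 to −0.044. At 6 h it was 2 without treated replicate 1 or 3 or DMSO replicate 1 or 3.

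With poly-A scaling 39 of the 40 positive changes turned below 0 at 6 h, 39 of 40 at 24 h and 33 of 33 at 72 h. Among the genes that the rule for array values names at each time, those that turned and were called on either scale were Rsl1d1 at 6 h (−0.25), at 24 h Rps27l (−0.60), Rpl18 (−0.76), Rpl22 (−0.92), Rps3 (−0.93), Rps29 (−0.95), Rpl5 (−1.01), Rpl11 (−0.89), Rps6 (−1.01) and Rplp0 (−0.97), and at 72 h Rps27l (−0.22), Rpl18 (−0.36), Rpl4 (−0.41), Rpl35a (−0.52) and Rpl21 (−0.54). Without DMSO replicate 1 the 24 h values in that order from Rps27l were −0.23, −0.33, −0.46, −0.50, −0.54, −0.58, −0.45, −0.59 and −0.53. Nap1l1 at 72 h turned to −0.15 and −0.066 with other probe sets. The cause was not tested. How far signal near the ceiling compressed changes of the 38 bright genes was not tested, and Rpl28 at 72 h lay at background. Alternatives chosen after seeing the data were the family without its dim genes and poly-A scaling without DMSO replicate 1.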
